A study of Homo sapiens with 2 samples.

Results

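The genes described are 10 regulators of tissue-type splicing, proteins that choose between alternative exons in one cell type or state and not in another: MBNL1, MBNL2 and MBNL3, CELF1 and CELF2, RBFOX2, QKI, PTBP1, ESRP1 and ESRP2. They were chosen by name, with the log2 difference of MBNL2 between these arrays already known, and a gene was taken where a probe set of the array named it and no other gene. This gave 9 of the 10, out of 22411 genes measured in the same way, each with 1 probe set. PTBP1 shared its probe set with the microRNA gene MIR4745 and has no value of its own here. The samples were 2 stable derivatives of MDA-MB-231, an established line of human triple-negative breast cancer with mesenchymal features. Control cells are described as carrying the empty pLKO.1 vector, though their sample title holds shNC, which reads as a control hairpin. Whether control cells expressed a hairpin is thus not settled by the labels. The other cells carried pLKO.1 with a short hairpin RNA against SREBP1, a transcription factor of lipid synthesis encoded by SREBF1. Each derivative was represented by 1 array, and no label used here states the number of clones or cultures behind it. There was thus no spread between replicates, no test could be made, and every difference is a description of these 2 arrays.

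Muscleblind-like (MBNL) proteins bind RNA through zinc fingers and switch alternative exons toward the patterns of differentiated tissue. In myotonic dystrophy, expanded RNA repeats sequester them while CELF1 rises, and CELF and MBNL proteins act in opposite directions on many of the same exons. RBFOX2, QKI and the ESRP proteins are known for the exons that change when epithelial cells take on a mesenchymal state: ESRP1 and ESRP2 maintain the epithelial forms, whereas QKI and RBFOX2 favour mesenchymal ones. PTBP1 represses neuronal exons outside the nervous system.

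The hairpin's target was no lower in the cells that carry the hairpin: SREBF1 had a log2 signal of 5.13 in control cells and 5.29 in hairpin cells. The array is therefore called by its label, shSREBP1, and directions below are those of the label, since SREBF1 RNA was not seen to fall. Values are RMA log2 signals of whole transcript clusters, and they hold no measure of exon inclusion. Signals of different probe sets are not comparable as levels, so each difference is taken within a gene across the arrays. The floor and the sets of genes nearest in signal, used below, do set probe sets side by side and are rough guides only. An expression floor of 3.21 log2 units, set at the 95th percentile of 359 olfactory receptor genes by their mean signal, was passed by 15677 genes on at least 1 array. Among these the SD of the differences was 0.19 log2 units and their median was 0.012. For the mesenchymal state of the line, VIM (vimentin) read 9.46 and 9.74 in control cells and on the array labelled shSREBP1, and ZEB1, a repressor of epithelial genes, read 6.40 and 6.28. CDH2 (N-cadherin) was under the floor on both arrays, at 2.70 and 2.78, and SPARC, a matrix protein of mesenchymal cells, read 4.06 and 4.09. Of 6 luminal markers measured 4 passed the floor, with the keratins KRT8 at 8.61 and 8.49 and KRT18 at 8.65 and 8.93, while the oestrogen receptor gene ESR1 was under it at 3.02 and 3.13. Of 10 epithelial markers 8 passed the floor, among them the claudin CLDN7 at 6.13 and 5.74 and EPCAM at 5.14 on each array. CDH1 (E-cadherin), at 3.32 and 3.16, passed the floor on the control array only. GRHL2, a driver of epithelial genes, was under the floor at 2.67 and 2.76. Of 5 leukocyte markers measured 3 passed the floor, CD68 at 8.64 and 8.85, CD14 at 4.31 and 3.96 and CD3E at 3.53 and 3.66, while the defining marker PTPRC was under it. Of 6 fibroblast markers 3 passed, COL1A1 at 5.01 and 4.99, PDGFRB at 4.50 and 4.19 and COL1A2 at 3.65 on each array, while DCN and LUM were under it. Of 5 muscle and neuron markers measured 4 passed the floor, ACTA1, MYOG, DES and RBFOX3. ACTA1 read 6.56 on the array labelled shSREBP1 and differed by 0.056 log2 units. MYOG read 4.27 on each array, and DES read 3.61 and 3.87. As these are markers of other tissues, passing the floor is not taken here to show expression by itself. No gene of the epithelial, luminal, leukocyte, fibroblast, or muscle and neuron marker lists differed by 1.5-fold. Of the mesenchymal markers 1 did, FN1, given below. Passing 1.5-fold was rare among the 15677 genes, at 0.753% on the lower side and 0.383% on the higher. With lists this short, finding none in the other marker lists is thus no result about cell identity.

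The sequence upstream of MBNL2, the regulator that differed most, is shown because the hairpin was directed against a transcription factor and this is where the gene's annotated transcripts begin. RefSeq promoter windows (GRCh38.p14) were given for 6 of the 10 genes, with 2 starts for MBNL2, and the 250 bases before each start are printed 5′ to 3′ on the plus strand. The first MBNL2 window is chr13:97141584-97141833 and the second is chr13:97222083-97222332. The third sequence, chr3:152298764-152299013, lies before 1 of the 3 annotated starts of the paralogue MBNL1. It was picked because it holds a motif match, in capitals, and the windows of the other MBNL1 starts held no match, like those of MBNL2.
MBNL2 start 1: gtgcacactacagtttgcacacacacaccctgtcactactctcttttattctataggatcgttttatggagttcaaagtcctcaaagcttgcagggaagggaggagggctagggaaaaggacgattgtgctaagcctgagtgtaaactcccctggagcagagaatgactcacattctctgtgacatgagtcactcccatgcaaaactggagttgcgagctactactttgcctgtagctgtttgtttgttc
MBNL2 start 2: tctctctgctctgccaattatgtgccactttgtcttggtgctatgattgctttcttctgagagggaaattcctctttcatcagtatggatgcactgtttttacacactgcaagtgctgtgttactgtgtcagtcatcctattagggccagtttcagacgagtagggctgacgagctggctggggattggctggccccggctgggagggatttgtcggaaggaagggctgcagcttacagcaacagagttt
MBNL1 start 2: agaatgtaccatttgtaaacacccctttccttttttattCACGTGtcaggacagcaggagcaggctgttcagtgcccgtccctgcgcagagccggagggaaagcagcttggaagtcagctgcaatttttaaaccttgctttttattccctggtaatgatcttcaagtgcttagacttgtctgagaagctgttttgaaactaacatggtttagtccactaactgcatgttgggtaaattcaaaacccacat
The motifs searched, on both strands, were the sterol regulatory element TCACNCCAC bound by SREBP proteins, the E-box CACGTG, and the core ACGTG of the hypoxia response element, which lies within CACGTG. Neither MBNL2 window held any of the 3. The MBNL1 window held CACGTG once, and with it ACGTG on each strand. Across 34943 such windows of all genes, 0.881% held TCACNCCAC, 6.32% CACGTG and 18.5% ACGTG. Among the 26 windows of the 6 genes, none held TCACNCCAC. These matches describe the letters in the windows and carry no information on binding.

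MBNL2 had a log2 signal of 7.96 in control cells and 6.82 on the array labelled shSREBP1. The signal was lower by 1.14 log2 units, or 2.20-fold, and it stayed well above the floor on both arrays. Among the 15677 differences it ranked 11 from the lowest. The 500 genes nearest to it in mean signal had an SD of differences of 0.19 log2 units, and 0 of the 500 were as low. MBNL2 was the 1 member beyond 1.5-fold or 2-fold among the 7 that passed the floor. Of the 15677 genes, 0.115% lay past 2-fold on the lower side and 0.0191% on the higher side, and 0.753% and 0.383% passed 1.5-fold in these directions. MBNL2 entered the list because of this difference, so the count carries no evidence about the list.

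MBNL1, a paralogue that shares many target exons with MBNL2, was also lower, but by much less. It read 7.47 in control cells and 7.24 on the array labelled shSREBP1, which differ by -0.23 log2 units or 1.17-fold. Genes of its signal level had an SD of 0.21, and 49 of the 500 nearest were as low or lower. The difference of MBNL2 minus that of MBNL1 was -0.91 log2 units. As MBNL2 was chosen with its difference known, this gap carries no evidence about the paralogues. MBNL3, the third paralogue, gave no signal above the floor, at 2.97 in control cells and 3.06 in hairpin cells. MBNL1-AS1, an antisense transcript of the MBNL1 locus, read 3.78 and 3.63, close to the floor.

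**Figure D1:**
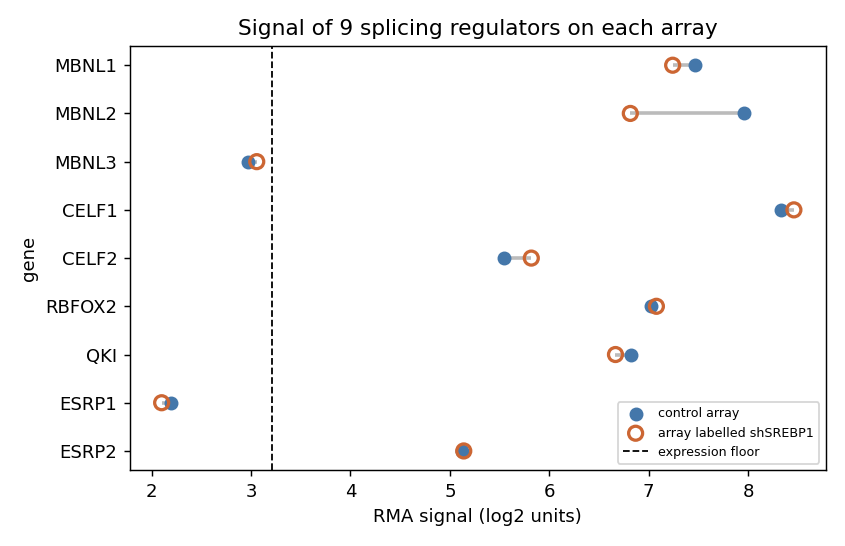
RMA signal in log2 units (x axis) of 9 splicing regulators (y axis) on the control array (filled points) and the array labelled shSREBP1 (open circles), joined by a line, with the expression floor of 3.21 dashed. MBNL2 has the longest line, from 7.96 to 6.82, and MBNL3 and ESRP1 lie under the floor on both arrays.

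CELF proteins oppose MBNL proteins on many exons. No CELF gene above the floor reached 1.5-fold, against 0.753% of all genes on the lower side and 0.383% on the higher. At such shares, none among so few genes is no result about the family. CELF2 read 5.54 in control cells and 5.82 on the other array, a difference of 0.27 log2 units or 1.21-fold, and 31 of the 500 genes nearest in signal were as high or higher. CELF1, which rises in myotonic dystrophy, read 8.34 and 8.46. Its difference of 0.13 was smaller than the SD of 0.20 at its level. With the signal-dependent curve described below subtracted, the difference was 0.065. The antisense transcripts CELF2-AS1 and CELF2-AS2 were under the floor on both arrays. Among the remaining family members, CELF4 read 4.45 and 4.55, CELF5 4.34 and 4.37, CELF3 4.58 and 4.57, and CELF6 4.36 on each array.

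Among the 10 listed genes, QKI, RBFOX2 and ESRP2 are the regulators of epithelial and mesenchymal exons that passed the floor. Each differed by less than the SD of genes of its level. QKI read 6.83 in control cells and 6.67 on the array labelled shSREBP1, which differ by -0.16 against an SD of 0.22. RBFOX2 read 7.02 and 7.08, a difference of 0.054 against an SD of 0.20. ESRP2, the epithelial regulator that passed the floor, read 5.12 and 5.14, the smallest difference of the 7 at 0.017. ESRP1 read 2.19 and 2.10, more than 1 log2 unit under the floor on both arrays. Among the 10 epithelial markers, GRHL2 and RAB25 were likewise under the floor. The other 8 passed it, EPCAM and CLDN7 among them, and CDH1 narrowly and on the control array only. The probe set that PTBP1 shares with MIR4745 read 9.61 and 9.95, which was 1.27-fold higher on the array labelled shSREBP1. It differed by 0.35 log2 units, more than the SD of 0.20 of genes of its level. Which of the transcripts carries that difference cannot be told apart.

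Setting MBNL2 aside, the other 6 members above the floor lay between -0.23 and 0.27 log2 units. Of all 7, 4 were higher and 3 lower, and their median difference was 0.017, whereas their mean, which MBNL2 weighs on, had the opposite sign at -0.15. Among the 15677 genes, 52.2% were higher and 41.2% lower by any amount, and the rest had equal values. Signals of brighter genes tended to be slightly higher on the array labelled shSREBP1, and after a loess curve fitted to differences by signal was subtracted, MBNL2 stood at -1.19, MBNL1 at -0.27, QKI at -0.19, CELF1 at 0.065 and CELF2 at 0.27. No member changed sign.

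**Figure D2:**
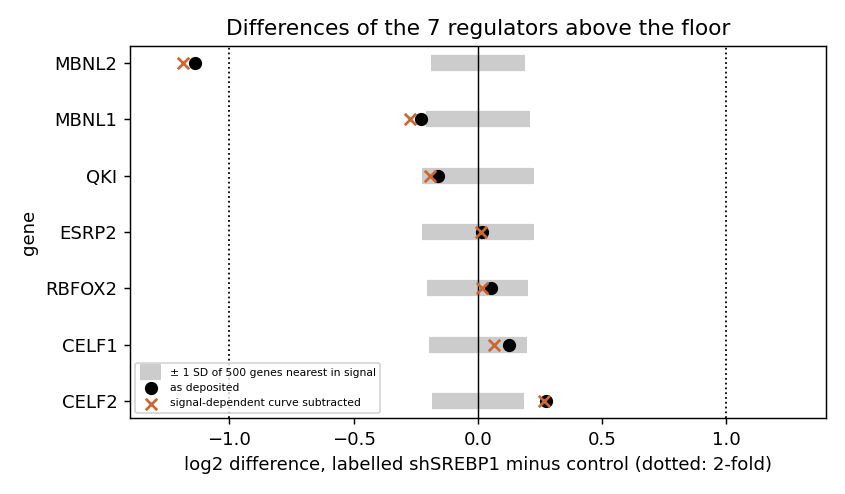
Log2 difference, array labelled shSREBP1 minus control (x axis), of the 7 regulators above the floor (y axis), as deposited (points) and with the signal-dependent curve subtracted (crosses). Grey bars span 1 SD of the 500 genes nearest in signal to either side of 0, and dotted lines mark 2-fold. MBNL2 lies at -1.14, past 2-fold, and the other 6 lie between -0.23 and 0.27.

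The wider splicing machinery was set beside these genes as 4 lists, of other tissue-type regulators, SR proteins with their kinases, hnRNP proteins, and core spliceosome subunits. Of their 123 genes, 111 had a probe set of their own and 101 passed the floor. None of the 101 differed by 1.5-fold, against 0.753% of all genes on the lower side and 0.383% on the higher. At such shares, none among 101 genes is no result about these lists. The differences of the 101 ran from -0.41 to 0.50 log2 units with a median of 0.071, or 0.036 after the curve was subtracted. MBNL2, at -1.14, lay outside that range, as it was chosen to do.

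Among 23 other tissue-type regulators above the floor, 13 were higher and 9 lower, against 52.2% and 41.2% of all genes. Their median was 0.019, or -0.00017 with the curve subtracted. RBM24, a regulator of muscle exons, read 4.06 in control cells and 4.56 on the array labelled shSREBP1, 1.41-fold higher. RBM38, its paralogue, read 5.54 and 5.79. RBM47, an RNA-binding protein with roles in splicing, had the lowest difference of the list, with 5.83 and 5.42, or 1.33-fold lower. TIA1, which aids recognition of weak splice sites, read 4.57 and 4.39. Among regulators known from neurons, RBFOX1, NOVA1 and ELAVL4 were under the floor on both arrays, while their paralogues RBFOX3, NOVA2 and ELAVL3 passed it. RBFOX3 read 3.82 and 3.92, NOVA2 4.85 and 4.90, and ELAVL3 3.39 and 3.37. PTBP2, the neuronal paralogue of PTBP1, read 4.53 and 4.49.

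SR proteins, which bind exonic enhancers, and the kinases that phosphorylate them had 8 of 20 members higher and 11 lower. Of all genes 52.2% were higher and 41.2% lower. The list's median was -0.019, or -0.063 with the curve subtracted. SRSF7 had the highest difference at 0.17 log2 units, followed by SRSF3 at 0.14, and CLK4, a kinase of SR proteins, was lowest at -0.22, followed by SRSF5 at -0.21. The 18 hnRNP proteins, many of which repress exons, had 11 members higher and 7 lower, against the same shares of all genes. Their median was 0.12, or 0.054 with the curve subtracted. HNRNPL read 7.36 in control cells and 7.76 on the array labelled shSREBP1, 1.32-fold higher, and HNRNPUL1 was higher by 0.26 log2 units. HNRNPA2B1 and HNRNPH1 had the lowest differences, at -0.10 and -0.09.

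Core spliceosome subunits leaned to one side by small amounts: 34 of 40 were higher and 5 lower, against 52.2% and 41.2% of all genes. These counts are of differences as deposited, in which brighter genes tended to be slightly higher on the array labelled shSREBP1. The list's median was 0.10 log2 units, or 0.075 with the curve subtracted. PRPF19, the ubiquitin ligase of the complex that joins the spliceosome at activation, read 7.50 and 7.94, or 1.35-fold higher. PHF5A, a subunit of the SF3B complex, was 1.29-fold higher. SF3B1, a core subunit of the same complex, read 8.40 and 8.31, and the helicase AQR 6.19 and 6.10.

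**Figure D3:**
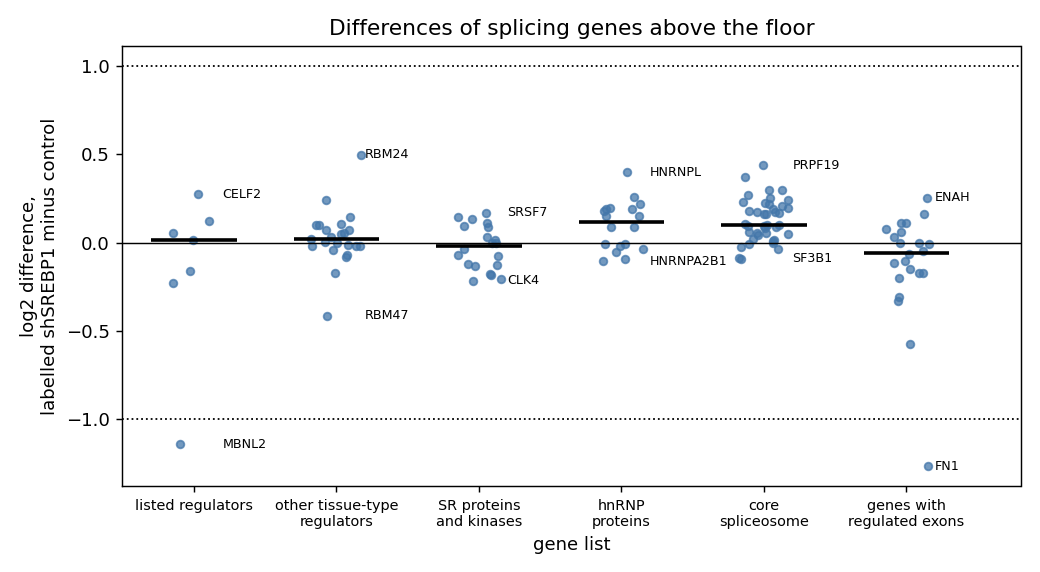
Log2 difference, array labelled shSREBP1 minus control (y axis), of each gene above the floor in 6 lists (x axis). Points are genes, black bars are list medians, dotted lines mark 2-fold, and the highest and lowest gene of each list is named. MBNL2 and FN1 lie past 2-fold. No gene of the 4 lists of other splicing factors reaches 1.5-fold, against 0.753% of all genes lower and 0.383% higher.

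Genes that carry exons regulated by these proteins were examined for their total signal. Among 22 that passed the floor, 7 were higher and 13 lower, against 52.2% and 41.2% of all genes. The median was -0.056, and 1 was past 1.5-fold on the lower side, against 0.753% of all genes. That gene was FN1, fibronectin, whose extra domains are alternative exons, at 7.32 in control cells and 6.06 on the array labelled shSREBP1, or 2.40-fold lower. Without FN1 the median was -0.046 over 21 genes. CDC42BPA, a kinase of the actin cytoskeleton, read 7.36 and 6.79, or 1.49-fold lower. ENAH, an actin regulator with an epithelial exon, read 5.47 and 5.73, and LDB3, a muscle protein with MBNL-dependent exons, read 3.56 and 3.72. CD44, the hyaluronan receptor whose variable exons depend on ESRP1, read 9.11 and 9.17.

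Targets of the hypoxia factor HIF1, whose list had been seen to be lower in earlier work on these arrays, were lower on the same array as MBNL2. Among 29 that passed the floor, 27 were lower and 2 higher, against 41.2% and 52.2% of all genes, and the list's median difference was -0.37 log2 units. Past 1.5-fold there were 9 lower genes and 1 higher, against 0.753% and 0.383% of all genes. LOX, which crosslinks collagen, had the lowest difference, with 6.01 in control cells and 5.16 on the array labelled shSREBP1. The other lower genes past 1.5-fold were DDIT4 at -0.82, INSIG2 at -0.74, PDK1 at -0.69, CA12 at -0.67, PFKFB4 at -0.63, BNIP3 at -0.63, NDRG1 at -0.59 and BNIP3L at -0.59 log2 units. ANGPTL4, an inhibitor of lipoprotein lipase, went the other way, with 4.68 and 5.47, or 1.73-fold higher. Whether the lower MBNL2 signal and these genes share a cause was not tested.

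The protein-coding genes that flank MBNL2 in the RefSeq table, looked up once its value was known, did not reach 1.5-fold where they passed the floor. Few genes did, 0.753% of all genes on the lower side and 0.383% on the higher, so this is no result about the locus. On one side RAP2A, a small GTPase, read 6.35 in control cells and 6.22 on the array labelled shSREBP1, and IPO5, a nuclear import receptor, read 7.23 and 7.42, both differing by less than the SD of genes of their level. On the other side OXGR1 and HS6ST3 were under the floor on both arrays.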

How the data were processed

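The deposited values are log2 signals, with 1 value per probe set and array, which the authors made by RMA. The program was Affymetrix Expression Console, as the submitters' processing notes state. Its version and a genome build were not given in the sources used here. RMA normalizes between arrays, and fold changes on arrays are commonly compressed. Depth does not apply to arrays, and their number, 1 per group, limits the precision. Of 70523 probe sets, 23781 named 1 gene, 1543 several and 45199 none in the platform annotation used. Symbols and gene types followed the RefSeq gene table (GRCh38.p14), which renamed 306 probe sets' genes. Where a gene had several probe sets, the one with the highest mean was used. A gene passed the floor when the higher of its values did.

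Differences are the array labelled knockdown minus control, grouped by the genotype label. The members and gene lists were chosen with earlier results of these data known. Named genes were the members, SREBF1, antisense genes of members, the genes beyond 1.5-fold or the 2 highest and lowest of each list. A further part of the rule, the 4 genes nearest to MBNL2 in signal, sets levels of different probe sets side by side and is not reported. Further CELF family and neuronal regulators, CD44, cell markers and the flanking genes fall outside this rule and were named after their values were seen. Alternatives changed the scaling (median difference or a loess curve, fraction 0.3, subtracted), the probe sets, the floor and the gene types. Tables were handled in Python 3.11.15 (pandas 2.3.3, numpy 2.4.6), loess was fitted with statsmodels 0.14.6 and figures drawn with matplotlib 3.10.9.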

Additional observations from a re-analysis of the deposited data

How the results depend on the processing

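The 7 members above the floor kept their direction after subtracting the median difference and with a signal-dependent curve subtracted. Averaging probe sets could not change them, as each had 1 probe set. MBNL2 ranged from -1.19 to -1.14 log2 units over these settings, MBNL1 from -0.27 to -0.23 and CELF2 from 0.26 to 0.27, while ESRP2 (0.0050 to 0.017) and RBFOX2 (0.015 to 0.054) stayed too close to 0 for their direction to carry weight. With the curve subtracted, 2 of the genes with regulated exons were at least 1.5-fold lower in place of 1, as CDC42BPA passed at -0.61. The median of the leukocyte markers, 0.13 over 3 genes, was -0.073 with the floor raised by 1 log2 unit. Over protein-coding genes alone, 36 genes were at least 1.5-fold higher in place of 60. Differences between single arrays hold culture, clone, labelling and hybridization effects that cannot be told apart from the label. No paired analysis was possible because each group had 1 array.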
